A study of Mus musculus with 8 samples.

Results

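The step from day 5 to day 7 of adipocyte differentiation was followed in cultured mouse preadipocytes of 2 genotypes, Irf3-knockout and wildtype. The cells were isolated from white adipose tissue and grown in high-glucose DMEM with 10% NCS, insulin at 24 nM and ascorbate (as its sodium salt) at 150 um, and the labels name no treatment. The members were taken by day and genotype label and are 4 of the 8 arrays of the series, 2 of day 7 and 2 of day 5. They give 2 differences paired by genotype, day 7 minus day 5 in knockout and day 7 minus day 5 in wildtype. Each genotype and day had 1 array of biotin-labelled cRNA on Illumina beads, and the other 4 arrays, of days 3 and 9, entered the estimate of the spread. The sources used here give no allele, strain or sex, and do not tell if arrays of a genotype share an animal or a culture. The p-values thus measure the spread between these samples, which may be technical. A change between days that differs between the genotypes also counts in this spread as error.

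Preadipocytes that turn into adipocytes first leave the cell cycle and switch on the transcription factors PPARG and CEBPA. These factors then drive the enzymes that make fatty acids and triglyceride, the coat proteins of lipid droplets, the insulin-responsive glucose transporter and the secreted adipokines. IRF3 is a transcription factor switched on when cells sense viral RNA or DNA, and it drives interferon and interferon-stimulated genes.

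All values are log2 normalized intensities of 1 probe per gene. They compare a gene with itself between arrays, not 1 gene with another. The mean raw intensity was 1026 on the knockout day 7 array and 990.7 on the knockout day 5 array, against 1011.5 on the wildtype day 7 array and 997 on the wildtype day 5 array. The share of 25697 probes with a detection p under 0.05 was 52.2% and 48.9% in knockout on days 7 and 5, and 50.7% and 47.6% in wildtype on days 7 and 5. Genes detected on 2 or more of the 8 arrays (detection p under 0.05) numbered 9758. The number of arrays limits the precision. The Irf3 probe read 10.36 on day 7 and 10.72 on day 5 in knockout, and 11.38 on day 7 and 11.21 on day 5 in wildtype. It was above background on all 4 arrays, and since the sources used here do not name the deleted part of the gene, its level does not check the genotype labels.

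Across both genotypes, genes of fat storage and of macrophages stood higher on day 7, and keratins and other epithelial genes, cell cycle genes and some inflammatory genes stood lower. No single gene passed the test. In limma with day as a factor and genotype as a term over the 8 arrays, 0 of 9758 genes (0%) had a Benjamini-Hochberg adjusted p under 0.05 in either direction. The lowest adjusted p was 0.208, and 1095 genes (11.2%) had an unadjusted p under 0.05, 570 of them (5.84%) higher on day 7 and 525 (5.38%) lower. What follows is therefore a description of sizes, with a step meaning day 7 minus day 5 on the log2 scale.

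In knockout 543 genes (5.56%) stood at least 2-fold apart between the days, 360 higher on day 7 (3.69%) and 183 lower (1.88%). The wildtype counts were 564 in all (5.78%), with 335 higher (3.43%) and 229 lower (2.35%). Both genotypes shared 176 of these genes in the same direction (1.8%), 135 higher on day 7 (1.38%) and 41 lower (0.42%). That was 32.4% of the knockout genes and 31.2% of the wildtype genes. A further 3 genes stood 2-fold apart in opposite directions (0.0307%). Over the 9758 genes the 2 steps correlated with a Pearson r of 0.462 and a Spearman rho of 0.41. This is a description across genes, which are not independent replicates and which share each array's processing. The sign was the same in both genotypes for 65.4% of genes, with 28.6% higher in both and 36.8% lower in both.

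**Figure D1:**
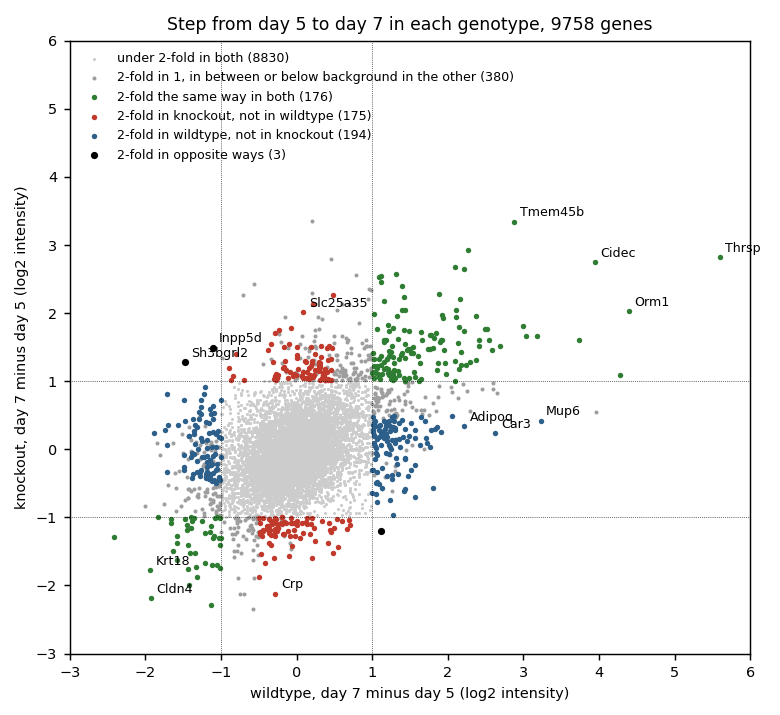
Each point is 1 of 9758 genes, with the knockout step on the vertical axis and the wildtype step on the horizontal axis, both day 7 minus day 5 in log2 intensity. Dotted lines mark 2-fold. The steps reach 3.35 in knockout and 5.6 in wildtype on the higher side, and -2.35 in knockout and -2.41 in wildtype on the lower side.

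The 12 genes with the largest mean step among those 2-fold higher in both genotypes included genes of fat storage such as Cidec, Gpd1 and Gpat3. In 8 of them a RefSeq promoter, from 250 bases before to 50 bases after the gene start on assembly GRCm38.p6, was at hand. A searched motif was found in 5 of the 8 genes, and the windows of 3 of these, Thrsp, Adig and Cox8b, are shown because these 3 had the largest mean steps of the 5. The other 2, Sult1a1 and Sorl1, are not shown. The capitals mark matches on either strand to the CCAAT box, to the TATA box letters TATAAA, or to the nuclear receptor half-site AGGTCA, and a match on the other strand appears as its reverse complement. The windows lie at chr7:97417501-97417800 on the minus strand for Thrsp, at chr2:158502362-158502661 on the plus strand for Adig and at chr7:140900397-140900696 on the minus strand for Cox8b.
Thrsp: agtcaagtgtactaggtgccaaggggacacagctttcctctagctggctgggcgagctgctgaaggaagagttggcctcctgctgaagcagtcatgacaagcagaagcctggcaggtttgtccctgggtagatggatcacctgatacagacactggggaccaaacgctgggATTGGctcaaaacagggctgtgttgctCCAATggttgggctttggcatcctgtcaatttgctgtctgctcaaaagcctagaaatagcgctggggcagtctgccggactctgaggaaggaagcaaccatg
Adig: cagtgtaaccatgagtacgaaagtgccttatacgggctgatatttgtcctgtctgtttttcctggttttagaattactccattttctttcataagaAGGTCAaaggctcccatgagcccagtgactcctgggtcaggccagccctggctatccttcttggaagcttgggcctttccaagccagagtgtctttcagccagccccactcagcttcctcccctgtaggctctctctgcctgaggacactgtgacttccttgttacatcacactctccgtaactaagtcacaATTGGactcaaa
Cox8b: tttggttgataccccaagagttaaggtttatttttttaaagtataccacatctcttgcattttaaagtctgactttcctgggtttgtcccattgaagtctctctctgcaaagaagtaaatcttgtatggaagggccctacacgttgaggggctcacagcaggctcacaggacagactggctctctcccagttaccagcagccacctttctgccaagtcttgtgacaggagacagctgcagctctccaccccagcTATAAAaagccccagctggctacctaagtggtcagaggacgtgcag
CCAAT was found in 3 of the 8 genes, TATAAA in 1, AGGTCA in 1 and CACGTG, an E-box, in 1. Among 32851 promoter windows of the same length the shares were 37.4% for CCAAT, 13.6% for TATAAA, 16.3% for AGGTCA and 7.15% for CACGTG. A match is a run of letters and not a shown binding site.

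Thrsp, which encodes a protein of lipogenic tissues tied to fatty acid synthesis, had the largest mean step. It read 13.79 on day 7 against 10.97 on day 5 in knockout, and 11.05 against 5.45 in wildtype, where the day 5 value was not above background. The day 7 arrays were the higher ones in both genotypes, and the wildtype step was at least 37.1-fold. The mean step was 4.21 ± 1.07 (SE), with an adjusted p of 0.305 in limma, and it was 2.21 without the wildtype day 5 array. Cidec, which fuses lipid droplets, read 12.08 on day 7 against 9.33 on day 5 in knockout, and 9.78 against 5.83 in wildtype. Its wildtype step was at least 15.4-fold, since the wildtype day 5 value was not above background. Adig, an adipocyte-restricted membrane protein, read 12.90 against 11.30 in knockout and 11.00 against 7.26 in wildtype, all above background. Its wildtype step was 3.74 and its knockout step 1.60.

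Slc2a4, the insulin-responsive glucose transporter GLUT4, read 10.39 on day 7 and 7.47 on day 5 in knockout. In wildtype it read 7.48 on day 7, with day 5 not above background at 5.21, a step of at least 3.13-fold. For Gpd1, the dehydrogenase that makes glycerol 3-phosphate for triglyceride, the values were 11.39 against 9.58 in knockout and 9.31 against 6.31 in wildtype. Gpat3, which adds the first fatty acid to glycerol 3-phosphate, read 10.29 against 8.62 in knockout and 8.73 against 5.70 in wildtype. Its wildtype day 5 value was not above background, and the step there was at least 7.44-fold. In these 3 genes the wildtype day 7 value stood close to the knockout day 5 value.

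Cox8b, a cytochrome oxidase subunit of brown fat and muscle, read 11.18 against 10.08 in knockout and 9.86 against 5.59 in wildtype, with a wildtype day 5 value not above background. Its wildtype step was at least 16.3-fold, its knockout step was 1.09, and its mean step of 2.69 was 1.04 without the wildtype day 5 array and 4.33 without the knockout day 5 array. The acute-phase plasma protein gene Orm1 read 13.21 against 11.18 in knockout and 10.89 against 6.5 in wildtype. Tmem45b, a transmembrane protein gene, read 9.64 against 6.30 in knockout and 7.64 against 4.76 in wildtype, where day 5 was not above background. Its mean step was 3.11 ± 0.50 (SE), with an adjusted p of 0.24 in limma, and 1.64 with no background correction. It was called when a day 3 array was left out, and leaving out either day 3 array gives the same fit for the step. The other 3 of the 12 were the sorting receptor gene Sorl1, the sulfotransferase gene Sult1a1 and the endolysosomal nuclease gene Pld4, with knockout steps of 2.65, 1.66 and 2.68 and wildtype steps of 2.21, 3.18 and 2.09. For Sorl1 and Pld4 the wildtype day 5 value was not above background, which bounds the step at 2.32-fold and 2.47-fold or more. All 12 were higher on day 7 in both genotypes.

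**Figure D2:**
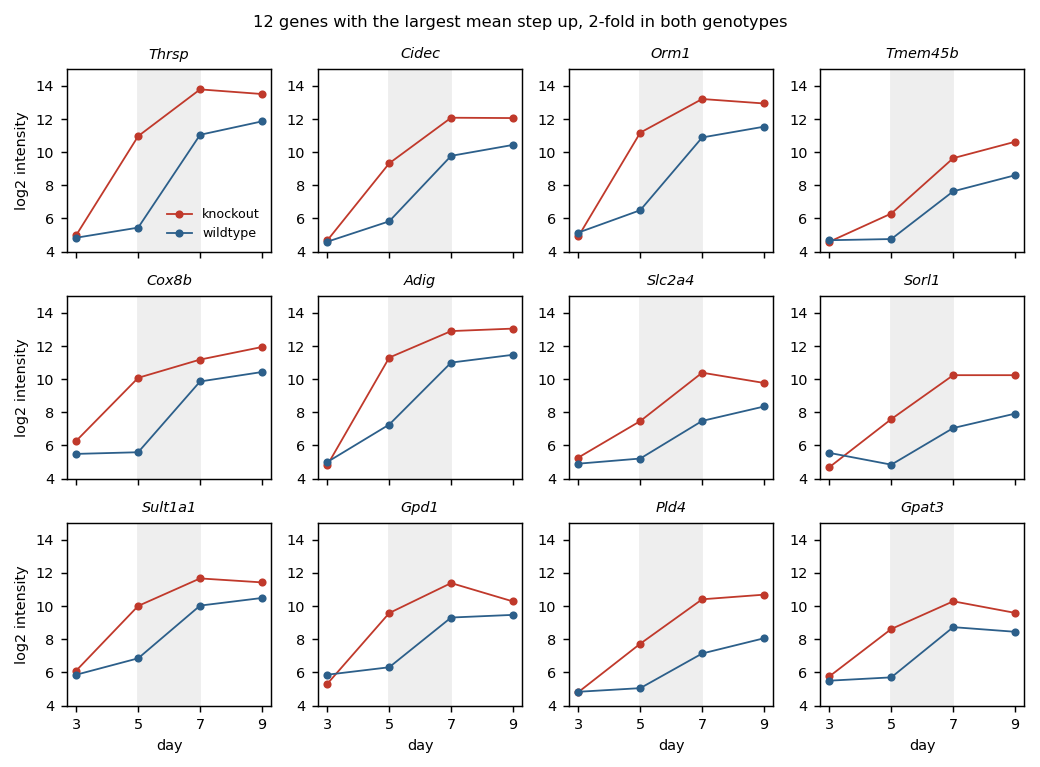
Log2 intensity by day for the 12 genes with the largest mean step up, 1 array per point, knockout in red and wildtype in blue, with the step shaded. Thrsp stands at 13.79 in knockout and 11.05 in wildtype on day 7, and the knockout line lies above the wildtype line on days 5 and 7 in all 12 panels.

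Among the 135 genes 2-fold higher in both, the median level was 10.09 on day 7 and 8.56 on day 5 in knockout, and 8.09 on day 7 and 6.37 on day 5 in wildtype. In 130 of the 135 (96.3%) the knockout day 5 value was above the wildtype day 5 value, against 47% of all genes, and in 82 (60.7%) it was at or above the wildtype day 7 value, against 52.4% of all genes. The choice of genes with a large wildtype step fixes part of these shares. The knockout and wildtype median steps were both 1.46. At the 2-fold limit, Fyb, an adaptor of immune cells, was just inside with a knockout step of 1 and a wildtype step of 1.62, and Cd74, the MHC class II invariant chain, was just outside with a knockout step of 1.06 and a wildtype step that rounds to 1 from below. The wildtype day 5 value was not above background in either gene, and the wildtype step was at least 3.03-fold for Fyb and 1.15-fold for Cd74.

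The 41 genes 2-fold lower in both included epithelial genes at the top. Cldn4, a tight junction claudin, read 5.20 on day 7 against 7.40 on day 5 in knockout and 7.47 against 9.40 in wildtype. The knockout day 7 value was not above background, so the knockout step was at least 3.74-fold lower. Krt18, a simple-epithelium keratin, read 5.09 against 6.87 in knockout and 6.16 against 8.10 in wildtype. The knockout day 7 value was not above background, so the knockout step was at least 2.6-fold lower. Its mean step was -1.86 ± 0.18 (SE), and it had the lowest unadjusted p of all genes, 2.16e-05 in limma, with an adjusted p of 0.208. The mean step was -0.79 with no background correction, and that of Cldn4, -2.06, was then -1.1. Its partner Krt8 read 7.10 against 8.47 in knockout and 9.19 against 10.78 in wildtype, Krt7 read 5.73 against 7.49 and 6.88 against 8.31, and Krt14 read 7.20 against 8.73 and 9.71 against 11.11, knockout first in each case. The day 7 values were lower in both genotypes in all of these, and the knockout values were below the wildtype values on both days.

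Cxcl1, a neutrophil chemokine, read 7.09 on day 7 against 9.08 on day 5 in knockout and 9.02 against 10.44 in wildtype. Has2, a hyaluronan synthase, had 7.14 against 8.87 in knockout and 8.43 against 9.77 in wildtype, with a mean step of -1.53 ± 0.20 (SE) and an adjusted p of 0.208 in limma. The protease inhibitor gene Serpinb2 had a knockout step of -2.28 and a wildtype step of -1.13, and the knockout day 7 value was not above background, a step of at least 2.74-fold lower. The other 4 of the 12 were Wfdc18, a protease inhibitor gene, with steps of -1.29 in knockout and -2.41 in wildtype, Il31ra, a cytokine receptor gene, with -1.88 and -1.32, Sphkap, a kinase anchoring protein gene, with -1.62 and -1.58, and Actc1, cardiac muscle actin, with -1.49 and -1.64. The 41 genes had median levels of 6.12 on day 7 and 7.44 on day 5 in knockout, and of 7.18 and 8.63 in wildtype. By measured value Tfap4, a helix-loop-helix factor gene, was just inside the limit at -1 in knockout. Its day 7 values were not above background in either genotype, which leaves steps of at least 1.67-fold lower in knockout and 2.38-fold lower in wildtype. The zinc transporter gene Slc39a10 was just outside with a wildtype step that rounds to -1 from the side nearer 0.

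**Figure D3:**
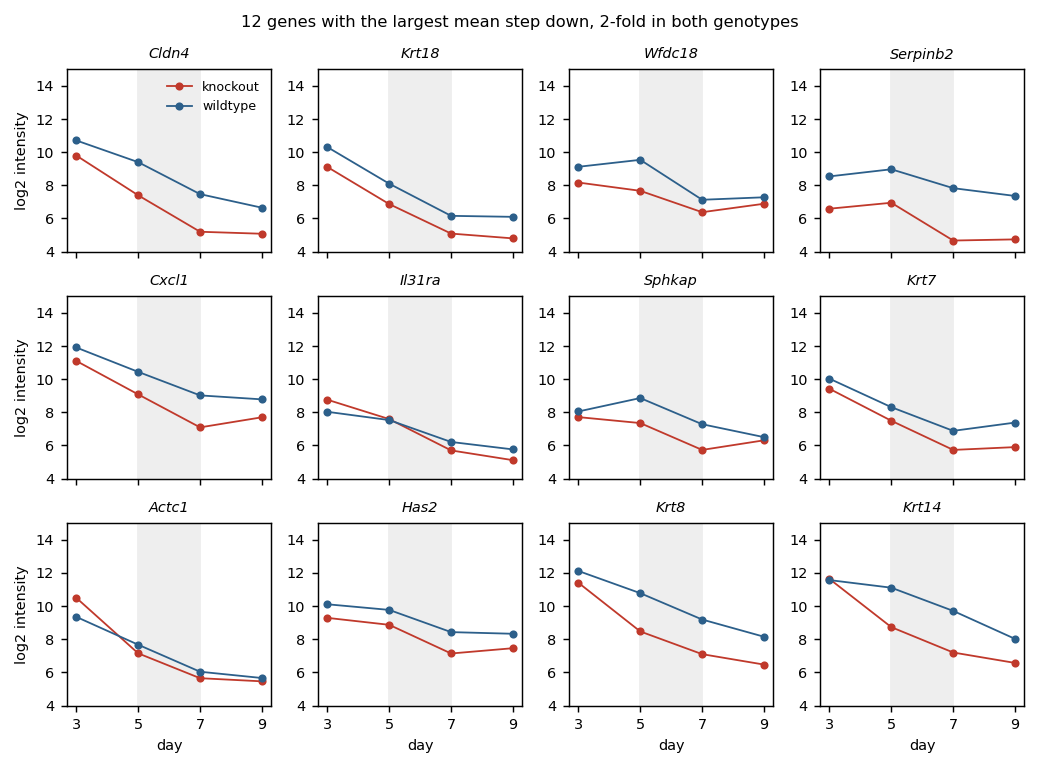
Log2 intensity by day for the 12 genes with the largest mean step down, 1 array per point, knockout in red and wildtype in blue, with the step shaded. Krt18 ends the step at 5.09 in knockout and 6.16 in wildtype.

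The gene lists described next were drawn up as pathways and cell types, and each count is of measured members, against all genes tested, whose median step was -0.05 in knockout and -0.03 in wildtype. In bulk RNA, fewer cells of a type and less RNA per cell cannot be told apart. Mature adipocyte markers had a median step of 0.89 in knockout and 2.20 in wildtype over 21 measured of 25. These medians were 0.54 in knockout and 1.07 in wildtype with no background correction, and 0.07 and 0.02 in the authors' processed values. In those processed values Cidec, Adig and Slc2a4 lay at the floor of 20 on all 8 arrays. Their steps there were 0 and entered the medians. In 19 of the 21 (90.5%) the step was above 0 in both genotypes, against 28.6% of all genes. Of the 21, 8 were 2-fold higher in both, against 1.38% of all genes. An unadjusted p under 0.05 in limma was reached by 14, all higher on day 7. The share of all genes with such a p and higher on day 7 was 5.84%. Pnpla2, the first lipase of stored fat, read 14.15 against 12.84 in knockout and 12.62 against 10.25 in wildtype, and Aqp7, a glycerol channel, read 10.33 against 9.08 and 8.79 against 6.54. Lpl, a lipoprotein lipase, and Trarg1, a regulator of glucose transporter traffic, were the 2 exceptions, with steps of -0.21 and -0.33 in knockout and -0.13 and -0.06 in wildtype.

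De novo fatty acid synthesis had a median step of 1.31 in knockout and 0.74 in wildtype over 16 genes, and the difference between genotypes was not tested. In 11 of the 16 (68.8%) the step was above 0 in both, against 28.6% of all genes. In the authors' processed values, where Thrsp lay at the floor on all 8 arrays, the medians were 0.56 in knockout and 0.35 in wildtype. Acss2, which activates acetate, read 13.72 against 12.40 in knockout and 12.38 against 11.34 in wildtype. Acaca, the first enzyme of fatty acid synthesis, read 14.00 against 12.60 in knockout and 12.63 against 11.64 in wildtype. The transcription factor genes Srebf1 and Mlxipl, which encode SREBP-1 and ChREBP, had knockout steps of 1.42 and 1.30 and wildtype steps of 1.39 and 2.10. Triglyceride synthesis and lipid droplet genes had medians of 0.78 in knockout and 0.71 in wildtype over 20 genes, 14 of them (70%) higher in both. Lpin1, a phosphatidate phosphatase, had a mean step of 1.53 ± 0.21 (SE) and an adjusted p of 0.215 in limma, and Dgat1, which makes triglyceride, one of 1.35 ± 0.26 (SE). Lipolysis genes had medians of 0.53 in knockout and 0.86 in wildtype over 14 genes, and 12 (85.7%) were higher in both. With no background correction these medians were 0.21 in knockout and 0.54 in wildtype.

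The lists of mitochondrial genes had smaller medians. The median step of the TCA cycle list was 0.60 in knockout and 0.32 in wildtype over 22 genes, with Pcx, pyruvate carboxylase, at 2.28 in knockout and 1.89 in wildtype. Fatty acid oxidation had 0.39 in knockout and 0.30 in wildtype over 20 genes. Of these, 16 (80%) were higher in both, against 28.6% of all genes, and 0 were 2-fold higher in both, against 1.38%. The respiratory chain had 0.23 in knockout and 0.06 in wildtype over 46 genes. Among brown and beige markers, 7 of 20 were measured, with medians of 0.66 in knockout and 1.11 in wildtype (0.49 in wildtype with no background correction), and Kcnk3, a potassium channel, stood at 2.45 in knockout and 1.11 in wildtype, where day 5 was not above background and the bound was 1.17-fold. Of the adipogenic transcription factors, 16 were measured, with medians of 0.06 in knockout and 0.30 in wildtype, and the mean steps of Srebf1, Mlxipl and Zfp423 were the ones with an unadjusted p under 0.05 in limma. Cebpa, the second main adipogenic factor, read 10.32 against 9.36 in knockout and 8.34 against 7.53 in wildtype.

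**Figure D4:**
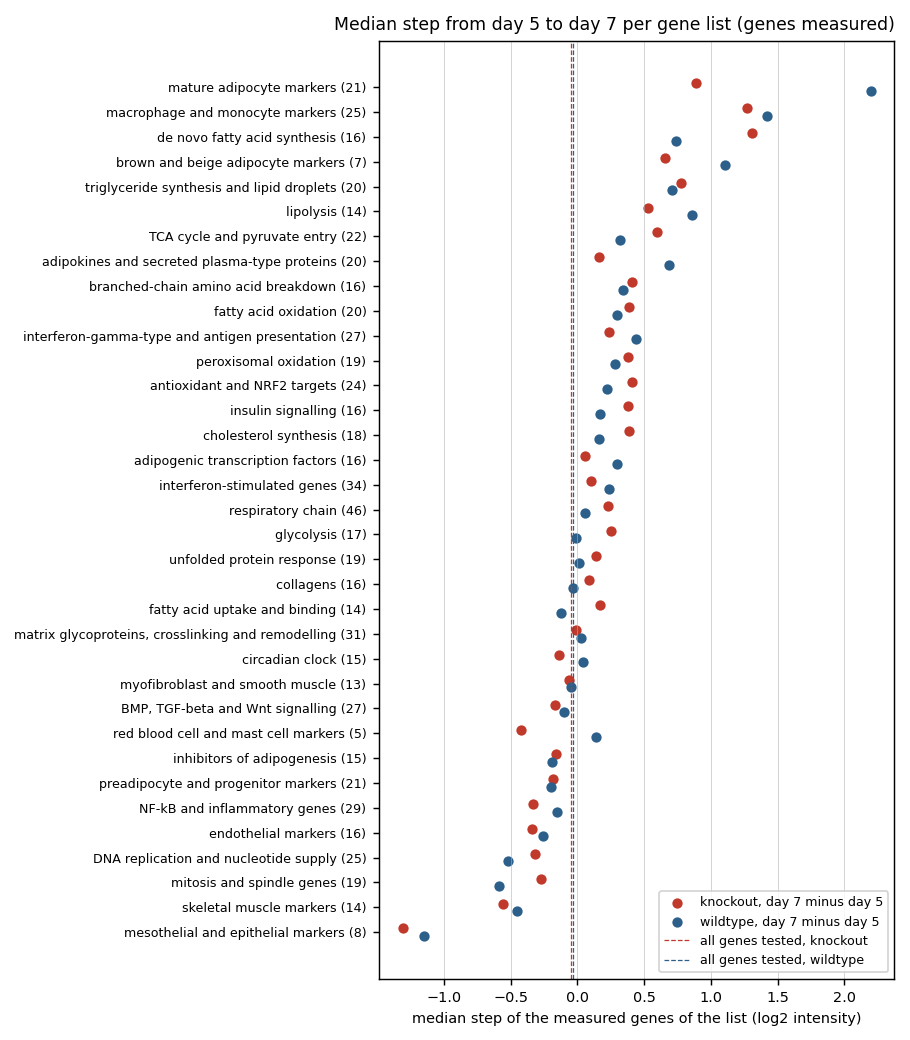
Median step (day 7 minus day 5, log2 intensity) of the measured genes in each list with at least 5, knockout in red above wildtype in blue, with the number of genes in brackets and dashed lines at the all-gene medians. Mature adipocyte markers stand at 0.89 in knockout and 2.20 in wildtype (0.07 and 0.02 in the authors' processed values, not plotted), macrophage markers at 1.27 and 1.42, and mesothelial and epithelial markers at -1.31 and -1.15. In the processed values some adipocyte markers, such as Cidec, lay at the floor on every array.

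Macrophage and monocyte markers were mostly higher on day 7, as were the fat storage genes. From day 7 to day 9 the macrophage medians were 0.51 in knockout and 0.7 in wildtype, and those of mature adipocyte markers -0.16 and -0.01. Of 30 macrophage markers 25 were measured, with median steps from day 5 to day 7 of 1.27 in knockout and 1.42 in wildtype, the second 0.88 with no background correction. The step was above 0 in both genotypes in 20 of 25 (80%), against 28.6% of all genes. Of the 25, 12 were 2-fold higher in both, against 1.38% of all genes. An unadjusted p under 0.05 in limma was reached by 15, all higher on day 7. The share of all genes with such a p and higher on day 7 was 5.84%. Fcgr3, an immunoglobulin receptor, read 11.24 against 9.77 in knockout and 8.77 against 7.28 in wildtype, with a mean step of 1.48 ± 0.18 (SE) and an adjusted p of 0.208. C1qb, a complement subunit, read 13.37 against 11.57 in knockout and 10.93 against 8.78 in wildtype. The linear sum of the 25 markers was 139000 on day 7 and 95500 on day 5 in knockout, and 73100 and 43900 in wildtype. The lysozyme gene Lyz2 was 1 of the other 5, at 14.50 against 14.73 in knockout and 14.05 against 12.49 in wildtype. Of the leukocyte genes Ptprc, Itgam and Cx3cr1, the first and second were above background on 1 of the 4 arrays, knockout day 7, at 5.80 and 6.18, and Cx3cr1 was above background on 0 of the 4. The part of these cells in the steps of the other lists was not tested.

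Cell cycle genes were lower on day 7, but their median falls were larger in the step from day 3 to day 5. Those earlier medians were -1.31 in knockout and -1.17 in wildtype for mitosis genes, and -0.68 and -1.12 for DNA replication genes. In 17 of 19 measured mitosis genes (89.5%) the step was below 0 in both genotypes, against 36.8% of all genes, with medians of -0.27 in knockout and -0.59 in wildtype. In 18 of 25 DNA replication genes (72%) it was also below 0 in both, with medians of -0.32 in knockout and -0.52 in wildtype. Cdca3, a mitotic regulator, read 10.07 against 10.71 in knockout and 9.90 against 10.74 in wildtype. Each list had 1 member with a step above 0 in both genotypes. Ccnd1, cyclin D1, had 0.79 in knockout and 0.42 in wildtype, and Mcm3, a subunit of the replicative helicase, had 0.05 in knockout and 0.13 in wildtype. The mesothelial and epithelial list, which holds Krt7, Krt8, Krt18 and Cldn4, had medians of -1.31 in knockout and -1.15 in wildtype over 8 genes. These were -0.61 and -0.62 with no background correction, and the wildtype median was -0.68 for genes above background on all 4 arrays. In 5 of the 8 (62.5%) the step was below 0 in both genotypes, against 36.8% of all genes. Above 0 were 1 knockout step and 2 wildtype steps. The medians from day 3 to day 5 were -1.59 in knockout and -1.33 in wildtype. The linear sums of the list were 1630 on day 7 and 2740 on day 5 in knockout, and 2370 and 4460 in wildtype. The skeletal muscle list had medians of -0.56 in knockout and -0.45 in wildtype over 14 genes. In 11 of the 14 (78.6%) the step was below 0 in both, against 36.8% of all genes.

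The preadipocyte list had medians of -0.18 in knockout and -0.20 in wildtype over 21 genes. Nt5e, the stromal surface enzyme CD73, read 7.62 on day 7 against 9.16 on day 5 in knockout and 7.98 against 9.32 in wildtype, with a mean step of -1.44 ± 0.19 (SE) and an adjusted p of 0.208 in limma. Dlk1, a preadipocyte factor that inhibits adipogenesis, went the other way, at 8.14 against 6.92 in knockout and 7.17 against 6.11 in wildtype. Inflammatory genes under NF-kB had medians of -0.33 in knockout and -0.15 in wildtype over 29 genes, with Cxcl1 and Cxcl5, both neutrophil chemokines, 2-fold lower in both. The step was below 0 in both genotypes in 14 of the 29 (48.3%), against 36.8% of all genes, and above 0 in both in 4 (13.8%). Tnf was 1 of these 4, with steps of 0.87 in knockout and 0.93 in wildtype, where day 5 was not above background. Interferon-stimulated genes had medians of 0.10 in knockout and 0.24 in wildtype over 34 genes. Of these, 0 were 2-fold apart in both, against 1.8% of all genes 2-fold the same way in both. Irf7, an interferon-induced factor, read 6.38 on day 7 and 5.70 on day 5 in knockout, and 10.11 and 9.13 in wildtype. Its knockout day 5 value was not above background, which leaves a knockout step of at least 1.57-fold. Of the antigen presentation genes, H2-D1, a class I heavy chain, had steps of 1.73 in knockout and 1.22 in wildtype, but its probe may share signal with near-identical class I genes.

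Genes 2-fold apart in 1 genotype are described without a test, since each genotype had 1 array per day and the difference between genotypes was not tested. A gene was placed there when its step in the other genotype was under 0.5 in size or of the other sign, and when it was above background on the brighter array of each genotype. In knockout and not wildtype there were 175 genes (1.79%), 94 higher on day 7 (0.963%) and 81 lower (0.83%). In wildtype and not knockout there were 194 (1.99%), 105 higher (1.08%) and 89 lower (0.912%). A further 57 (0.584%) and 63 (0.646%) were 2-fold apart in knockout or in wildtype but not above background on the brighter array of 1 or both genotypes, and 260 (2.66%) lay between the limits.

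The 105 genes higher in wildtype and not in knockout were 1.08% of all genes. They held 3 of the 21 measured mature adipocyte markers, Adipoq, Car3 and Retn. They also held 5 of the 20 measured adipokines and plasma-type proteins, Adipoq and Retn again among them. Adipoq, adiponectin, read 14.39 on day 7 against 14.05 on day 5 in knockout, and 13.85 against 11.63 in wildtype. Car3, an adipocyte carbonic anhydrase, read 14.58 against 14.34 in knockout and 13.82 against 11.19 in wildtype. Mup6, a major urinary protein gene whose close copies may share its probe, read 14.08 against 13.67 in knockout and 12.87 against 9.63 in wildtype. Rdh12, a retinol dehydrogenase, read 10.38 against 10.35 in knockout and 9.46 against 7.68 in wildtype. In each of these 4 the wildtype day 5 array was the lowest of the 4, and the knockout arrays of both days were the highest. In 27 of the 105 (25.7%) the knockout day 5 value was at or above the wildtype day 7 value, against 52.4% of all genes. In 96 (91.4%) it was above the wildtype day 5 value, against 47% of all genes. The choice of genes high on wildtype day 7 and low on wildtype day 5 fixes part of both shares. Pparg, the main adipogenic receptor, belonged here too, at 13.05 against 12.71 in knockout and 11.90 against 10.86 in wildtype. Leaving out genes not above background on all 4 arrays left 50 of the 105.

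Genes higher in knockout and not in wildtype held a fatty acid elongase. Elovl6 read 12.49 on day 7 against 10.71 on day 5 in knockout, and 10.58 against 10.65 in wildtype. Slc25a35, a mitochondrial carrier, read 8.45 against 6.44 in knockout and 6.05 against 5.96 in wildtype. Irf8, a transcription factor of myeloid cells, read 7.66 against 6.47 in knockout and 5.64 against 6.53 in wildtype. Knockout day 7 was the highest of the 4 arrays in all 3. Chac1, a glutathione-degrading enzyme gene of the stress response, read 10.02 against 7.76 in knockout and 10.06 against 9.58 in wildtype, so the knockout day 5 array was the low one. Eno1b, an enolase gene, Rbpms2, an RNA-binding protein gene, and Carnmt1, a carnosine methyltransferase gene, above background on all 4 arrays, had knockout steps of 1.71, 1.75 and 1.54 and wildtype steps of -0.28, -0.23 and -0.34. Of 2 Carnmt1 probes, however, 1 was higher on day 7 in both genotypes. Cpox of heme synthesis, Spry4, an inhibitor of growth factor signalling, and Prkaa2, a catalytic subunit of AMPK, had knockout day 5 values not above background, and knockout steps of at least 1.75-fold, 1.69-fold and 3.59-fold.

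Lower in knockout and not in wildtype were the plasma protein genes Crp and Ahsg. Crp, C-reactive protein, read 7.10 on day 7 against 9.21 on day 5 in knockout and 9.61 against 9.90 in wildtype. Ahsg, fetuin-A, read 5.79 against 7.17 in knockout and 7.37 against 6.96 in wildtype. Clec3b, tetranectin, read 8.97 against 10.41 in knockout and 9.22 against 8.67 in wildtype. Ppl, the desmosomal protein periplakin, and Sncg, gamma-synuclein of adipocytes, had knockout steps of -1.52 and -1.15 and wildtype steps of 0.48 and 0.49. Lower in wildtype and not in knockout, and above background on all 4 arrays, were Tcim, the arginase gene Arg1, the complement gene C8b, the immune transcription factor gene Irf4 and the endothelial phosphatase gene Ptprb, with wildtype steps of -1.72, -1.11, -1.32, -1.42 and -1.16 and knockout steps of 0.07, 0.63, 0.32, 0.19 and 0.38. Of the 89 genes of this kind, 42 were above background on all 4 arrays. The knockout day 5 value was above the wildtype day 5 value in 1 of the 89 (1.12%), against 47% of all genes. The choice of genes high on wildtype day 5 fixes part of this share.

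The 3 genes with opposite 2-fold steps were each above background on 3 of the 4 arrays, so that 1 step of each is a bound, at least 2.32-fold in knockout for Sh3bgrl2 and, in wildtype, at least 1.78-fold for Inpp5d and 1.36-fold for Btg3. Inpp5d, a lipid phosphatase of blood cells, read 7.78 on day 7 against 6.29 on day 5 in knockout and 5.32 against 6.42 in wildtype. Sh3bgrl2 read 6.94 against 5.66 in knockout and 5.61 against 7.08 in wildtype, and Btg3, an antiproliferative gene, read 5.79 against 7.00 in knockout and 6.28 against 5.17 in wildtype.

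**Figure D5:**
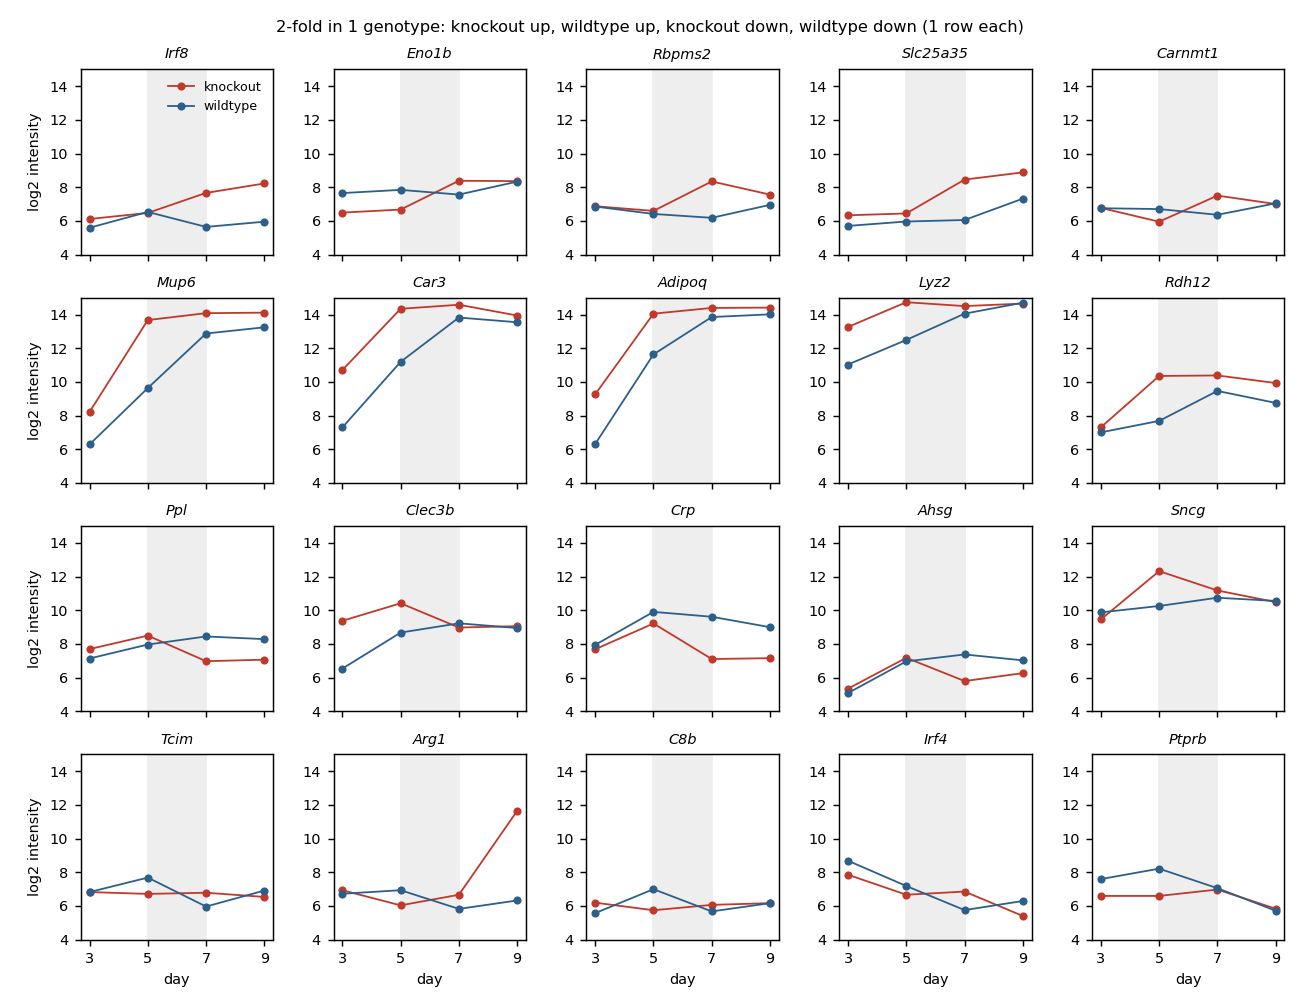
Log2 intensity by day for 20 genes 2-fold apart in 1 genotype and above background on all 4 arrays of days 5 and 7, 1 array per point, knockout in red and wildtype in blue, with the step shaded. In the second row Adipoq stands at 14.05 in knockout on day 5, above the wildtype day 7 value of 13.85.

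The step was also set against its neighbours, which share the day 5 or the day 7 arrays with it. Counts of genes at least 2-fold apart were 765 in knockout and 1133 in wildtype from day 3 to day 5, 543 and 564 from day 5 to day 7, and 264 and 226 from day 7 to day 9. The median step of mature adipocyte markers was 2.28 in knockout and 1.23 in wildtype from day 3 to day 5, 0.89 and 2.20 from day 5 to day 7, and -0.16 and -0.01 from day 7 to day 9. In limma, 0 of 9758 genes (0%) differed between the step from day 5 to day 7 and the step from day 3 to day 5 at an adjusted p under 0.05 (lowest 0.597), and 730 (7.48%) had an unadjusted p under 0.05, 330 with the larger value in the step from day 5 to day 7 (3.38%) and 400 with the smaller (4.1%). Against the step from day 7 to day 9 the count was also 0 (0%), with a lowest adjusted p of 0.564 and 515 genes (5.28%) at an unadjusted p under 0.05, 233 with the larger value in the step from day 5 to day 7 (2.39%) and 282 with the smaller (2.89%).

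The genes with the smallest p against the earlier step included Ifitm1, an interferon-induced membrane protein gene, which read 6.01 on day 7 against 7.50 on day 5 in knockout and 6.42 against 7.22 in wildtype, after a gain before day 5. Nrn1, neuritin, had small steps after a large earlier one, at 12.55 against 12.18 in knockout and 13.02 against 12.59 in wildtype. Tuba3b, a tubulin, had steps of 1.34 in knockout and 1.43 in wildtype, and its difference from the earlier step was 3.00 ± 0.46 (SE). Against the later step the smallest p belonged to Cirbp, a cold-inducible RNA-binding protein gene. It read 9.13 on day 7 against 7.53 on day 5 in knockout and 8.70 against 6.79 in wildtype, and 7.34 and 7.27 on day 9. Its step exceeded the later one by 3.37 ± 0.39 (SE), with an adjusted p of 0.564. Dipk1b and Lpin1 had differences from the later step of 2.18 and 1.91, and Wdr78, Mrpl15 and Hcfc1r1 had -2.21, -2.06 and -1.82.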

How the data were processed

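RNA extracted with TRIzol was hybridised as biotinylated cRNA, per the labels' protocols. The authors deposited bead intensity values on a linear scale, which the values show to be unnormalized between arrays, and a detection p-value per probe, per the file headers. A deposited table of processed intensities, with no normalization named in the sources used here, held a floor of 20 and served as an alternative. In R 4.3.3 with limma 3.58.1, neqc corrected the background (offset 16), quantile-normalized and took log2 values. Of 25697 probes, 23978 carried 1 symbol and 1719 none. Probes detected (p under 0.05) on 2 or more of 8 arrays were kept, and the brightest stood for its gene, which gave 9758 genes. limma was fitted on 8 arrays with day and genotype as terms (3 residual degrees of freedom), with Benjamini-Hochberg adjustment. On simulated data for this contrast over 9758 genes, limma called 22 of 67 genes changed by a log2 of 1. It called 66 of 67 by 2 and 66 of 66 by 4, with 11 false calls in all. In the measured arrays Thrsp, with a mean step of 4.21, and Orm1, with 3.21, were not called. Their adjusted p in limma was 0.305 and 0.36. How often a step of a given size is called in the measured arrays was not tested.

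The members and gene lists were chosen with earlier results of these data known. The naming rule took called genes. As none was called, the 12 with the largest mean step in each direction among genes 2-fold in both genotypes are named instead, chosen after their values were seen, as were the 5 per class above background on all 4 arrays. List members named are mostly those with the smallest p. A bound takes, on the dim array, the higher of the gene's own signal and the lowest signal among detected probes. Alternatives were the background correction, the offset, the scaling, the filter, the probe rule, the variance prior, the fold threshold, the deposited values and leaving out each array.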

Additional observations from a re-analysis of the deposited data

Results flagged for a closer look

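The genes and lists here had steps of opposite sign in the 2 genotypes, with 1 array per genotype and day, and none of these differences was tested. Of the 37 genes, 14 were above background on all 4 arrays and 23 were not, so that the printed difference of the 23 rests partly on values not above background. The opposite sign was present in all 37 with no background correction, an offset of 50 or median scaling, in 36 with the mean of all probes, and in 28 in the authors' processed values, where the other 9 had a step of 0 in both genotypes. Each value is the knockout step minus the wildtype step on the log2 scale. The genes 2-fold apart in opposite directions gave 2.75 for Sh3bgrl2, 2.59 for Inpp5d and -2.32 for Btg3.

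Among genes 2-fold higher on day 7 in knockout by measured value, the difference was 2.20 for Cpox, 2.08 for Irf8, 1.99 for Eno1b, 1.98 for Rbpms2, 1.92 for Spry4 and 1.88 for Carnmt1. For Cpox and Spry4 the knockout day 5 value was not above background, and the knockout step was at least 1.75-fold and 1.69-fold. Among genes 2-fold lower in knockout, it was -2.01 for Ppl, -1.98 for Clec3b, -1.84 for Vstm2a, -1.81 for Carmil3, -1.79 for Ahsg, -1.73 for Sarnp, -1.67 for Vmn1r200 and -1.64 for Sncg. Knockout day 7 was not above background for Vstm2a, Carmil3 and Vmn1r200, with bounds of 1.46-fold, 1.73-fold and 2.31-fold. Of 2 Carnmt1 probes, 1 was higher on day 7 in both genotypes.

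Among genes 2-fold higher on day 7 in wildtype, it was -2.37 for Azin2, -2.26 for Olfr1023, -2.24 for Ltf, -2.03 for Zfyve19, -2.03 for Dok5, -1.97 for Mill2 and -1.79 for Lyz2. In the first 6 the wildtype day 5 value was not above background, and the wildtype steps were bounded at 1.17-fold (Ltf) to 2.31-fold (Azin2) or more. Azin2, Mill2 and Dok5 had 2 probes each. For Azin2 and Mill2, 1 of these was higher on day 7 in both genotypes, and for Dok5 1 was lower in both. The Lyz2 probe may share signal with Lyz1, and 2 of 3 Lyz2 probes were higher on day 7 in both genotypes. With the mean of all probes its step was 0.61 in knockout and 1.18 in wildtype. Among genes 2-fold lower in wildtype, it was 2.53 for Klhl18, 2.21 for Rhov, 2.14 for Zfp42, 2.13 for Frzb, 2.05 for Brsk2, 2.02 for Cspg5, 2.02 for Cep95, 1.99 for Gchfr, 1.79 for Tcim, 1.74 for Arg1, 1.64 for C8b, 1.62 for Irf4 and 1.55 for Ptprb. In the first 8, Klhl18 to Gchfr, the wildtype day 7 value was not above background, and the wildtype steps were bounded at 1.55-fold (Cspg5) to 2.84-fold (Klhl18) lower or more. The knockout day 5 value was also not above background in these 8 other than Klhl18.

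For 6 lists the median steps had opposite signs. Fatty acid uptake had a median of 0.17 in knockout and -0.12 in wildtype, and glycolysis 0.25 in knockout and -0.01 in wildtype. Collagens stood at 0.09 in knockout and -0.03 in wildtype, other matrix genes at -0.01 and 0.03, red cell and mast cell genes at -0.42 and 0.14, and circadian genes at -0.14 and 0.04. The sign of the median changed under at least 1 alternative setting for collagens, glycolysis in wildtype, and, in 1 genotype each, other matrix genes, red cell and mast cell genes and circadian genes.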

How the results depend on the processing

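With 1 array per genotype and day, the spread was borrowed from the other days, and differences between genotypes have no error. For the step 0 genes were called in every setting that kept all 8 arrays or the 4 of days 5 and 7, with lowest adjusted p-values from 0.0508 (trended robust prior) to 0.305. Leaving out each array gave 0 to 1 called genes for the step. The 1 was Tmem45b (3.11), without wildtype day 3 or without knockout day 3, and these 2 settings are the same fit for the step. Against the earlier step the range was 0 to 2, with Il1rn and Reg1 called without knockout day 3, and against the later step it was 0 throughout. Genes at an unadjusted p under 0.05 for the step numbered 450 without wildtype day 5, 476 without knockout day 7 and 1514 without either day 3 array. Genes 2-fold the same way in both, 176, became 51 with no background correction, 104 with an offset of 50, 114 above background on all 4 arrays and 632 at 1.5-fold. In knockout and not wildtype, 175 became 50 with no background correction, 96 with an offset of 50 and 624 at 1.5-fold. In wildtype and not knockout, 194 became 21, 70 and 574 in the same settings, and 92 above background on all 4 arrays. The all-4-arrays and 1.5-fold settings count fewer or more genes by construction. For the others the cause was not tested. The mean step of H3c3, 0.07, became -0.04 with median scaling and 0 in the deposited values. That of Irf3, -0.10, ran from -0.44 without wildtype day 7 to 0.24 without knockout day 7. Of the other recomputed mean steps of named genes, 2177 kept their direction and side of the threshold, which for nearly all means not called, but sizes moved. With no background correction 53 of 131 named genes had a mean step smaller by over 1.5 times, as had 11 with an offset of 50, 23 without wildtype day 5 and 21 without knockout day 7. The list medians that moved most are given beside their values. In the deposited values 7 of the 12 genes with the largest step up were at the floor on all 8 arrays. The genotype term pairs the days within each genotype, and the labels give no replicate numbers for a further block.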

Other observations

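Among lists not yet described, peroxisomal oxidation had median steps of 0.38 in knockout and 0.28 in wildtype over 19 genes. Of these, 15 (78.9%) were higher on day 7 in both genotypes, against 28.6% of all genes. Branched-chain amino acid breakdown had 0.41 in knockout and 0.34 in wildtype over 16 genes, cholesterol synthesis 0.39 and 0.16 over 18, NRF2 targets 0.41 and 0.22 over 24, and insulin signalling 0.38 and 0.17 over 16. Gsta3, a glutathione transferase, read 11.46 on day 7 against 9.69 on day 5 in knockout and 9.50 against 7.02 in wildtype. Inhibitors of adipogenesis had medians of -0.16 in knockout and -0.19 in wildtype over 15 genes, BMP, TGF-beta and Wnt signalling -0.17 and -0.10 over 27, endothelial markers -0.34 and -0.26 over 16, and myofibroblast markers -0.06 and -0.05 over 13. The antigen presentation list had 0.24 in knockout and 0.44 in wildtype over 27 genes. Unfolded protein response genes had 0.14 in knockout and 0.01 in wildtype over 19, and the sign of both medians, like that of the knockout median of the myofibroblast list, changed under at least 1 alternative setting. Adipokines and secreted plasma-type proteins had 0.16 in knockout and 0.69 in wildtype over 20 genes. Of these, 12 (60%) were higher on day 7 in both, against 28.6% of all genes. The lymphocyte list had 1 measured gene and the nerve sheath list 3.

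A few genes stood apart on day 7 alone, an observation made after the values were seen. By measured value, 11 genes on day 7 stood 1.5-fold or more above both day 5 and day 9 in both genotypes, and 7 stood as far below both. Of these, 4 of the 11 and 6 of the 7 were above background on all 4 arrays of days 5 and 7, and for the rest the size is uncertain. Cirbp was the 1 gene at 2-fold. Mthfd2, a mitochondrial folate enzyme, read 8.29, 9.70 and 8.78 on days 5, 7 and 9 in knockout and 8.93, 9.65 and 8.05 in wildtype. Slc1a5, a glutamine transporter, read 6.01, 7.43 and 5.68 in knockout and 5.60, 6.85 and 6.17 in wildtype, where day 5 was not above background. Slc7a11, the cystine transporter, read 5.25, 6.76 and 5.53 in knockout and 5.29, 6.21 and 5.10 in wildtype, with day 5 not above background in either genotype, which leaves steps of at least 2.05-fold in knockout and 1.3-fold in wildtype. Hsph1, a heat shock protein gene, was low on day 7, at 10.79, 9.79 and 10.72 in knockout and 11.04, 10.10 and 10.72 in wildtype. The cause was not tested.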
